A study of Rattus norvegicus with 11 samples.

Results

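The genes described here are the classical axon guidance ligands and receptors: semaphorins with their plexin and neuropilin receptors, ephrins with their Eph receptors, Slits with Robos, and netrins with Dcc and the Unc5 receptors. They were taken by gene symbol alone, as every gene of the deposited count tables with a symbol of one of these families. The rule itself uses no measured value, but the families were chosen with earlier results of these data known. Of 42172 gene rows, 68 met the rule. Of these, 67 had enough reads to be tested, and Robo3, a receptor of commissural axons, lay below the low-count filter with at most 4 counts in any library.

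Polyadenylated RNA was sequenced from primary hippocampal neurons of CD (Sprague Dawley) IGS rats after 7 days in vitro. The neurons carried exogenous H1.4, a linker histone, in its wild-type form (WT H1.4, n = 4, numbered WT 1 to 4) or with a C-terminus tail changed by a frameshift (H1.4 CFT, n = 4, CFT 1 to 4), or green fluorescent protein as a control (GFP, n = 3, GFP 2 to 4). The labels call the libraries biological replicates and name no shared litter, culture or preparation day. They do not give the promoter, vector or species of the constructs, the age or sex of the animals, or the share of cells that carried a construct. Linker histones bind DNA where it enters and leaves the nucleosome, and H1.4 is one of the somatic forms.

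Guidance ligands are read by receptors on the growth cone at the tip of an axon, which steers towards or away from the source. Class 3 semaphorins are secreted and act through neuropilins paired with plexins, whereas ephrins are bound to membranes and signal into both the cell that carries the ephrin and the cell that carries the Eph receptor. In the hippocampus the same molecules are also known for dendrite branching, spine shape and synapse formation, so they remain in use after axons have grown out.

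Gene counts came to between 12070941 and 18846492 per library, and the 68 genes took between 0.643% and 0.708% of them. In both H1.4 groups, libraries numbered 1 and 2 and libraries numbered 3 and 4 formed pairs, and in GFP, which has no library 1, libraries 3 and 4 formed a pair apart from library 2: variance between libraries was 1.83 to 2.43 times counting variance within a pair and 4.12 to 12 times across pairs, over 13617 genes. No label says what the numbers share. The 12 neuronal markers summed to between 7673 and 7751 CPM in WT H1.4, 5203 and 6094 CPM in H1.4 CFT, and 7379 and 7647 CPM in GFP, with 10 of 12 lower in H1.4 CFT relative to WT H1.4 and 11 of 12 relative to GFP. The 12 astrocyte markers summed to between 1694 and 1824 CPM in WT H1.4, 2215 and 2303 CPM in H1.4 CFT, and 2145 and 2301 CPM in GFP. Of 11 tested astrocyte markers 7 were higher in H1.4 CFT relative to WT H1.4 and 2 relative to GFP. Inhibitory neuron markers summed to between 119 and 141 CPM in WT H1.4, 148 and 186 CPM in H1.4 CFT, and 162 and 212 CPM in GFP. In H1.4 CFT 5 of 9 tested were higher and 0 lower relative to WT H1.4, and 1 higher and 2 lower relative to GFP. Over all tested genes 16.7% were higher and 19.2% lower relative to WT H1.4, and 13.3% and 16.2% relative to GFP. Over all libraries oligodendrocyte markers summed to 483 to 593 CPM, mural and fibroblast markers to 108 to 154 CPM (4 of 10 tested higher and 1 lower in H1.4 CFT relative to WT H1.4) and microglial markers to 8.46 to 14.5 CPM. CPM, counts relative to the scaled library total, are scaled here by TMM factors and not by gene length, so they compare libraries for one gene and not one gene with another.

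Guidance genes were more often lower than higher in H1.4 CFT neurons. Against WT H1.4, 27 of 67 fell, 9 rose and 31 did not pass the test, where the background over all 17294 tested genes was 19.2% lower and 16.7% higher. In shares, 40.3% of the tested guidance genes fell and 13.4% rose. Their median log2 fold change was -0.10, beside 0.02 for all genes. Against GFP, 19 fell, 12 rose and 36 did not pass, beside 16.2% lower and 13.3% higher over all genes, and the median was -0.03 beside 0.01. WT H1.4 against GFP gave 2 higher and 0 lower, beside 0.434% and 0.509% over all genes (0.943% in either direction). All calls used edgeR's quasi-likelihood test with Benjamini-Hochberg adjustment over all tested genes and a threshold of 0.05. The comparisons share libraries with each other, so they are set side by side and not counted as independent. With libraries scaled to total counts alone, 21 guidance genes were lower and 14 higher than in WT H1.4, and over all genes 2272 were lower and 4986 higher. In RNA from whole cultures, fewer cells of a type and less RNA per cell cannot be told apart, and the part of the lower neuronal marker level in these counts was not tested.

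**Figure D1:**
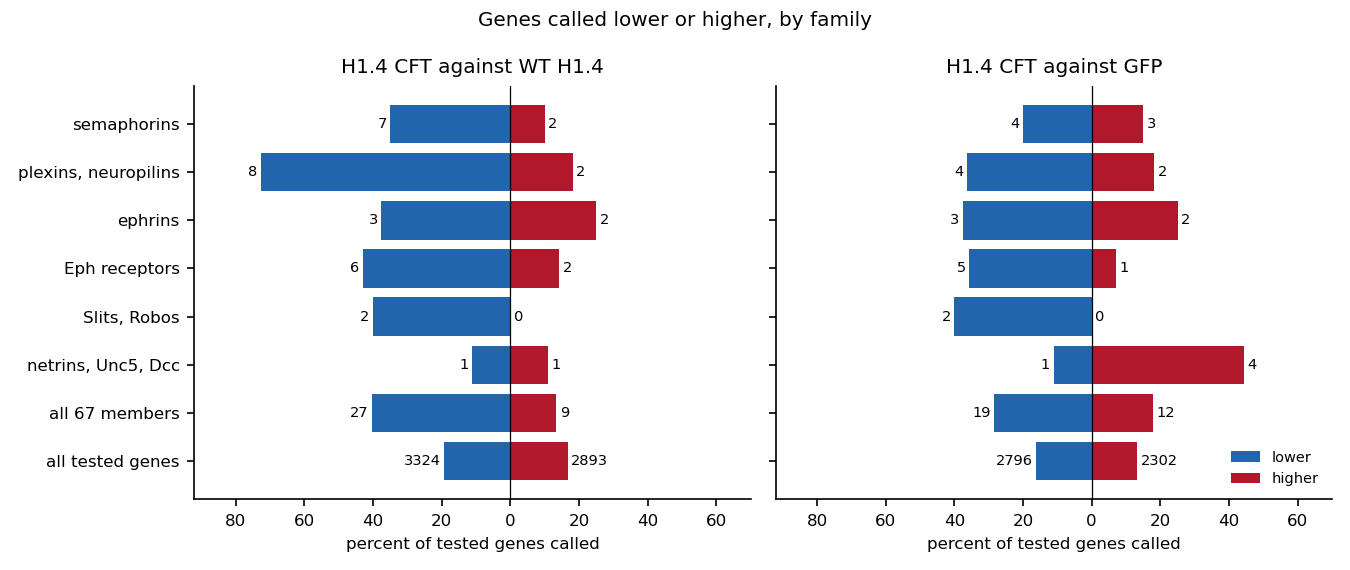
Percent of tested genes that were lower (blue, to the left) or higher (red, to the right) in H1.4 CFT, by family, relative to WT H1.4 and to GFP. Numbers at the bars are gene counts, and the lowest bars give all 17294 tested genes. Plexins and neuropilins have the longest bar to the left against WT H1.4, with 8 of 11 lower.

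Receptors and ligands both leaned to the lower side against WT H1.4. Of 32 tested receptors 16 fell (50%) and 4 rose (12.5%), and of 35 ligands 11 fell (31.4%) and 5 rose (14.3%). Over all tested genes these shares were 19.2% and 16.7%. Against GFP, 11 receptors fell (34.4%) and 5 rose (15.6%), and 8 ligands fell (22.9%) and 7 rose (20%), beside 16.2% and 13.3% over all tested genes. Against both control groups 18 genes were lower in H1.4 CFT: Sema3e, Sema3f, Sema4f, Sema4g, Plxna1, Plxna4, Plxnd1, Nrp1, Efna3, Efna5, Efnb3, Epha5, Epha6, Epha8, Epha10, Ephb6, Slit2 and Unc5d. A further 8 were higher against both: Sema3b, Sema5a, Plxnb1, Plxnb2, Efnb1, Efnb2, Ephb4 and Ntn5. Over all tested genes 13.5% were lower and 9.91% higher against both, and both counts use the same 4 H1.4 CFT libraries. Guidance genes with opposite calls against the control groups numbered 0. Over all tested genes 0.0231% were higher against WT H1.4 and lower against GFP, and 0.0173% the reverse, so this count is near the background.

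Plxnd1 and its ligand Sema3e were both lower in H1.4 CFT neurons. Plexin-D1 is the receptor that binds semaphorin 3E without needing a neuropilin, and the pair is known for guiding axon tracts and blood vessels. Plxnd1 stood at 111, 107, 125 and 129 CPM in WT 1 to 4, 68.9, 62.8, 55.0 and 47.6 CPM in CFT 1 to 4, and 109, 119 and 111 CPM in GFP 2 to 4. The H1.4 CFT libraries lay apart from all others, and Plxnd1 was 2.02-fold lower than in WT H1.4 (log2 fold change -1.01, with SE 0.10 and adjusted p = 3.48e-05) and 1.93-fold lower than in GFP (log2 fold change -0.95, with SE 0.11 and adjusted p = 0.000119). Sema3e stood at 26.8, 28.8, 32.9 and 29.2 CPM in WT 1 to 4, 17.8, 18.8, 19.0 and 14.7 CPM in CFT 1 to 4, and 23.8, 22.2 and 26.1 CPM in GFP 2 to 4. Here too every H1.4 CFT library was below every other library. The difference was 1.68-fold against WT H1.4 (log2 fold change -0.75, with SE 0.09 and adjusted p = 3.24e-06) and 1.37-fold relative to GFP (log2 fold change -0.46, with SE 0.10 and adjusted p = 0.00146).

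The opposite direction was seen for another ligand and receptor pair, ephrin-B2 and EphB4. Ephrin-B2 is a membrane ligand of the EphB receptors, EphB4 its preferred receptor, and they are best known for separating arteries from veins. Efnb2 stood at 88.7, 91.8, 94.9 and 83.7 CPM in WT 1 to 4, 126, 128, 135 and 131 CPM in CFT 1 to 4, and 96.8, 87.6 and 102 CPM in GFP 2 to 4. All 4 H1.4 CFT libraries were above all 7 others, by 1.45-fold over WT H1.4 (log2 fold change 0.53, with SE 0.05 and adjusted p = 3.29e-07) and 1.36-fold over GFP (log2 fold change 0.44, with SE 0.06 and adjusted p = 9.15e-06). For Ephb4 the values were 12, 12.2, 11.9 and 11.7 CPM in WT 1 to 4, 16.7, 17.3, 18.4 and 15.1 CPM in CFT 1 to 4, and 10.4, 12.3 and 9.44 CPM in GFP 2 to 4. Ephb4 was 1.41-fold higher than in WT H1.4 (log2 fold change 0.50, with SE 0.09 and adjusted p = 0.000411) and 1.59-fold higher than in GFP (log2 fold change 0.67, with SE 0.11 and adjusted p = 0.000111). Its span overlaps that of Zan in the RefSeq gene table, and the strand setting of the counting is not given in the sources used here. The 11 markers of endothelial cells, which also use this pair, summed to 12.8 to 15.4 CPM in H1.4 CFT, 11.7 to 13.6 CPM in WT H1.4 and 10.9 to 11.7 CPM in GFP, with 1 of 7 tested higher against each control group. Cdh5 was at 0 in every WT H1.4 library and Tie1 in every other library, and the part of these markers in the result was not tested.

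The promoters of these 4 genes are shown because the members of each pair moved together, one pair lower and one higher. Each line holds the 250 bases before the gene's RefSeq start in the GRCr8 build, on the strand of the gene, 5′ to 3′. Plxnd1 lies at chr4:150715188-150715437 on the minus strand, Sema3e at chr4:21510375-21510624 on the minus strand, Efnb2 at chr16:87484965-87485214 on the plus strand and Ephb4 at chr12:24988389-24988638 on the minus strand. Capitals mark matches on either strand to the SP1 box GGGCGG, the E-boxes CAGGTG and CAGCTG, and the CCAAT box. These matches overlap nowhere in the 4 sequences.
Plxnd1: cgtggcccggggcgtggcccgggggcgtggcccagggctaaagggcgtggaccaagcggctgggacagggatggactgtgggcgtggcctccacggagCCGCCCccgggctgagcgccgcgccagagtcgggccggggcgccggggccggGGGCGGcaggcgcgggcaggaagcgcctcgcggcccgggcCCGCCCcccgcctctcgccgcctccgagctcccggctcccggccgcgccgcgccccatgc
Sema3e: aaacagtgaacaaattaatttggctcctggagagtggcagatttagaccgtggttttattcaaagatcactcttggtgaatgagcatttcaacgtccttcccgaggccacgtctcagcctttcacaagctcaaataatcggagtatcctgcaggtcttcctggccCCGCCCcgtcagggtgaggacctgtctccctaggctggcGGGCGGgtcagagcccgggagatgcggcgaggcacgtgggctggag
Efnb2: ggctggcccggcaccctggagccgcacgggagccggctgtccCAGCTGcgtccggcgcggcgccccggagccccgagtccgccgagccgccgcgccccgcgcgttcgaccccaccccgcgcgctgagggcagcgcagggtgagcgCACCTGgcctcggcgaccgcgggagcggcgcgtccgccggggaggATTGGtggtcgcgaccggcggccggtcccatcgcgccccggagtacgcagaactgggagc
Ephb4: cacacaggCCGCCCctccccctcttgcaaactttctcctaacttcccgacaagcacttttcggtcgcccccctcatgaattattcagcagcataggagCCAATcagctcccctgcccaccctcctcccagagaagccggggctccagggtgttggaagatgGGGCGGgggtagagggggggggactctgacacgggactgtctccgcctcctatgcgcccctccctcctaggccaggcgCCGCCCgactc
The promoters of Plxnd1, Sema3e and Ephb4 hold 3, 2 and 3 SP1 boxes. Efnb2's window has 1 match to each E-box and 1 to CCAAT, and 0 SP1 boxes. G and C make up 83.2% of the Plxnd1 window, 55.6% of Sema3e, 80.4% of Efnb2 and 64.4% of Ephb4.

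Guidance gene promoters were rich in G and C as a set. Promoter sequence was found for 53 of the 68 genes. Their median G and C content was 63.6%, beside 52% over 27456 rat promoters of the same length, and they held a median of 14 CpG dinucleotides beside 6. The 27456 promoters were not limited to genes tested in these neurons, whereas 67 of the 68 guidance genes were tested. These shares therefore do not set guidance genes against the other tested genes. The SP1 box GGGCGG, made of G and C alone, was in 30 of 53 (56.6%) beside 32.4% of all promoters. TATAAA, the TATA box, was in 0 of 53 beside 13.1%. CCAAT was in 34% beside 34.3%, CAGGTG in 15.1% beside 15.6% and CAGCTG in 22.6% beside 11.9%. Among the genes lower against both controls 11 had a sequence, and 5 of these held GGGCGG. Among those higher against both it was 4 of 6. A match is a description of the letters in this window only.

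The other semaphorins moved in both directions. Of all 20 semaphorins, 7 fell (35%) and 2 rose (10%) against WT H1.4, beside 19.2% and 16.7% over all tested genes. Sema4g, a membrane-bound class 4 semaphorin, stood at 71.9, 69.9, 72.6 and 68.0 CPM in WT 1 to 4, 53.5, 48.6, 39.6 and 38.7 CPM in CFT 1 to 4, and 74.2, 66.1 and 68.1 CPM in GFP 2 to 4. It was 1.57-fold lower than in WT H1.4 (log2 fold change -0.65, with SE 0.09 and adjusted p = 4.47e-05) and 1.54-fold lower than in GFP (log2 fold change -0.62, with SE 0.09 and adjusted p = 0.000158), with no overlap of libraries. Sema4f, of the same class and found at glutamatergic synapses, stood at 46.5, 50.6, 53.3 and 48.5 CPM in WT 1 to 4, 37.9, 41.9, 36.2 and 35.5 CPM in CFT 1 to 4, and 51.1, 48.9 and 53.3 CPM in GFP 2 to 4. Its decrease was 1.31-fold and 1.35-fold (log2 fold change -0.39, with SE 0.06 and adjusted p = 8.61e-05 against WT H1.4, and log2 fold change -0.43, with SE 0.07 and adjusted p = 9.14e-05 against GFP). Sema3f, the secreted ligand of neuropilin-2 that limits spines on hippocampal and cortical neurons, was at 10.5 ± 2.46 CPM in H1.4 CFT (SD, n = 4), 14.5 ± 1.21 CPM in WT H1.4 (n = 4) and 14.3 ± 1.92 CPM in GFP (n = 3). Its log2 fold changes were -0.47 (adjusted p = 0.012, SE 0.14) and -0.46 (adjusted p = 0.0272, SE 0.15).

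Sema5a was the semaphorin with the clearest rise. It is a transmembrane protein with thrombospondin repeats that can attract or repel axons. Its span overlaps that of LOC134485782, a protein-coding gene, in the RefSeq gene table. Sema5a stood at 55.3, 50.5, 52.7 and 50.9 CPM in WT 1 to 4, 78.3, 83.0, 72.9 and 72.0 CPM in CFT 1 to 4, and 45.3, 40.4 and 39.7 CPM in GFP 2 to 4. The groups did not overlap, with GFP lowest, WT H1.4 between and H1.4 CFT highest. H1.4 CFT was 1.46-fold above WT H1.4 (log2 fold change 0.55, with SE 0.06 and adjusted p = 9.58e-07) and 1.83-fold above GFP (log2 fold change 0.87, with SE 0.07 and adjusted p = 3.07e-08), and WT H1.4 was 1.25-fold above GFP (log2 fold change 0.33, with SE 0.07 and adjusted p = 0.0174). Sema3b, a secreted class 3 semaphorin, stood at 4.82, 3.91, 4.47 and 3.82 CPM in WT 1 to 4, 8.80, 7.88, 6.47 and 6.38 CPM in CFT 1 to 4, and 5.81, 5.04 and 5.29 CPM in GFP 2 to 4. It was 1.73-fold higher than in WT H1.4 (log2 fold change 0.79, with SE 0.14 and adjusted p = 0.000281). Against GFP it was 1.37-fold higher (log2 fold change 0.45, with SE 0.16 and adjusted p = 0.0324), and with the replicate number as a block the adjusted p was 0.0644.

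Sema3d, Sema4a and Sema6c passed against WT H1.4 and not against GFP. Against WT H1.4 the log2 fold changes were -0.69, -0.32 and -0.17 (adjusted p = 0.0159, 0.0111 and 0.0278). Against GFP they were -0.32, -0.15 and 0.05 (adjusted p = 0.341, 0.274 and 0.559). With total counts alone the adjusted p of Sema6c against WT H1.4 was 0.273. Sema3d had few reads, with 1.31 to 2.07 CPM in H1.4 CFT, 2.39 to 3.20 CPM in WT H1.4 and 1.82 to 2.52 CPM in GFP. Sema4c was higher against GFP alone (log2 fold change 0.26, SE 0.06, adjusted p = 0.00334), beside 0.03 against WT H1.4 (adjusted p = 0.679). The remaining 10 semaphorins, Sema3a, Sema3c, Sema3g, Sema4b, Sema4d, Sema5b, Sema6a, Sema6b, Sema6d and Sema7a, passed in no comparison. Sema3g had very few reads, with 0.303 to 0.704 CPM in WT H1.4 and 0.454 to 1.07 CPM in H1.4 CFT. Its 95% interval on the log2 scale was wide, -0.68 to 1.18 against WT H1.4. With the replicate number as a block, Sema4b and Sema6d passed against WT H1.4 (log2 fold change -0.13 and -0.12, adjusted p = 0.0408 and 0.0499). Sema6a, the repellent that acts on plexin-A2 and plexin-A4 in hippocampal mossy fibres, was at 154 ± 6.0 CPM in H1.4 CFT (n = 4), 155 ± 8.85 CPM in WT H1.4 (n = 4) and 155 ± 4.72 CPM in GFP (n = 3). Its 95% interval on the log2 scale was -0.11 to 0.09 against WT H1.4 and -0.11 to 0.10 against GFP. For Sema3a, the ligand first known for growth cone collapse, it was -0.32 to 0.05 and -0.38 to 0.03. Sema3c differed more by replicate number than by group. It stood at 79.1, 77.5, 105 and 98.5 CPM in WT 1 to 4, 68.0, 63.5, 105 and 106 CPM in CFT 1 to 4, and 65.7, 77.7 and 89.7 CPM in GFP 2 to 4, so that libraries 3 and 4 were above libraries 1 and 2 in both H1.4 groups.

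Among plexins and neuropilins 8 of 11 fell (72.7%) and 2 rose (18.2%) against WT H1.4, beside 19.2% and 16.7% over all tested genes. Against GFP 4 fell (36.4%) and 2 rose (18.2%), beside 16.2% and 13.3%. Nrp1, the co-receptor for semaphorin 3A and for vascular endothelial growth factor, stood at 449, 457, 460.3 and 476 CPM in WT 1 to 4, 345, 346, 323 and 315 CPM in CFT 1 to 4, and 443, 419 and 409 CPM in GFP 2 to 4. The 4 H1.4 CFT libraries were below all others. Nrp1 was 1.39-fold lower than in WT H1.4 (log2 fold change -0.47, with SE 0.04 and adjusted p = 2.08e-07) and 1.28-fold lower than in GFP (log2 fold change -0.35, with SE 0.05 and adjusted p = 1.42e-05). Nrp2, the co-receptor for semaphorin 3F, stood at 636, 659.8, 629.5 and 673 CPM in WT 1 to 4, 570.4, 573, 506 and 511 CPM in CFT 1 to 4, and 624, 517 and 524 CPM in GFP 2 to 4. It fell against WT H1.4 (1.20-fold, log2 fold change -0.27, with SE 0.06 and adjusted p = 0.00173), while against GFP the groups overlapped (log2 fold change -0.04, with SE 0.06 and adjusted p = 0.684). GFP 2 was nearer to WT H1.4 than GFP 3 and GFP 4 were.

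All 4 type A plexins, the partners of neuropilins, fell against WT H1.4. Plxna1 fell by 1.21-fold (407, 434, 356 and 362 CPM in CFT 1 to 4 against 474, 468, 471 and 466 CPM in WT 1 to 4, log2 fold change -0.27, with SE 0.05 and adjusted p = 0.000406). Against GFP, where it stood at 446, 439.5 and 452 CPM, the log2 fold change was -0.19 (adjusted p = 0.0114, SE 0.06). Plxna2, a receptor of Sema6a, stood at 639.6, 627, 695 and 683 CPM in WT 1 to 4, 591, 600.0, 595 and 589 CPM in CFT 1 to 4, and 613, 571 and 593 CPM in GFP 2 to 4. Its level in H1.4 CFT was below WT H1.4 (log2 fold change -0.16, with SE 0.04 and adjusted p = 0.00619) and overlapped GFP (log2 fold change 0.00, with SE 0.04 and adjusted p = 0.973). Plxna3 gave log2 fold changes of -0.12 (adjusted p = 0.028) and 0.02 (adjusted p = 0.73). Plxna4 gave -0.19 (adjusted p = 0.00555) and -0.17 (adjusted p = 0.0198). With libraries scaled to total counts alone the adjusted p against WT H1.4 was 0.182 for Plxna2, 0.513 for Plxna3 and 0.108 for Plxna4, and against GFP it was 0.0534 for Plxna1 and 0.163 for Plxna4.

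Plxnb1 and Plxnb2, type B plexins that are receptors of class 4 semaphorins, lay on the other side. Plxnb1 stood at 95.9, 103, 117 and 111 CPM in WT 1 to 4, 115, 121, 128 and 136 CPM in CFT 1 to 4, and 105, 103 and 113 CPM in GFP 2 to 4. It rose against WT H1.4 (log2 fold change 0.23, with SE 0.06 and adjusted p = 0.00775), where CFT 1 was below WT 3, and against GFP (log2 fold change 0.23, with SE 0.07 and adjusted p = 0.0167). Plxnb2 stood at 153, 140.0, 147 and 149.5 CPM in WT 1 to 4, 160.3, 159, 179 and 162 CPM in CFT 1 to 4, and 139, 129 and 134 CPM in GFP 2 to 4. Every H1.4 CFT library was above every other, and CFT 3 was above its own group. The log2 fold change of Plxnb2 was 0.16 against WT H1.4 (adjusted p = 0.00894, SE 0.05) and 0.30 against GFP (adjusted p = 0.000181, SE 0.05). Plxnb3, with 0.425 to 1.46 CPM in WT H1.4 and 1.31 to 2.25 CPM in H1.4 CFT, passed in no comparison, with a wide 95% interval of 0.09 to 1.51 on the log2 scale against WT H1.4 (adjusted p = 0.0735). Plxnc1, the receptor of semaphorin 7A, stood at 234, 260.1, 214 and 222 CPM in WT 1 to 4, 189, 191, 121 and 125 CPM in CFT 1 to 4, and 255, 209 and 191 CPM in GFP 2 to 4. CFT 3 and CFT 4 were far below CFT 1 and CFT 2, and the decrease of 1.49-fold against WT H1.4 had an adjusted p of 0.0367. Against GFP the adjusted p was 0.0981 at a log2 fold change of -0.48, and 0.00305 with the replicate number as a block.

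**Figure D2:**
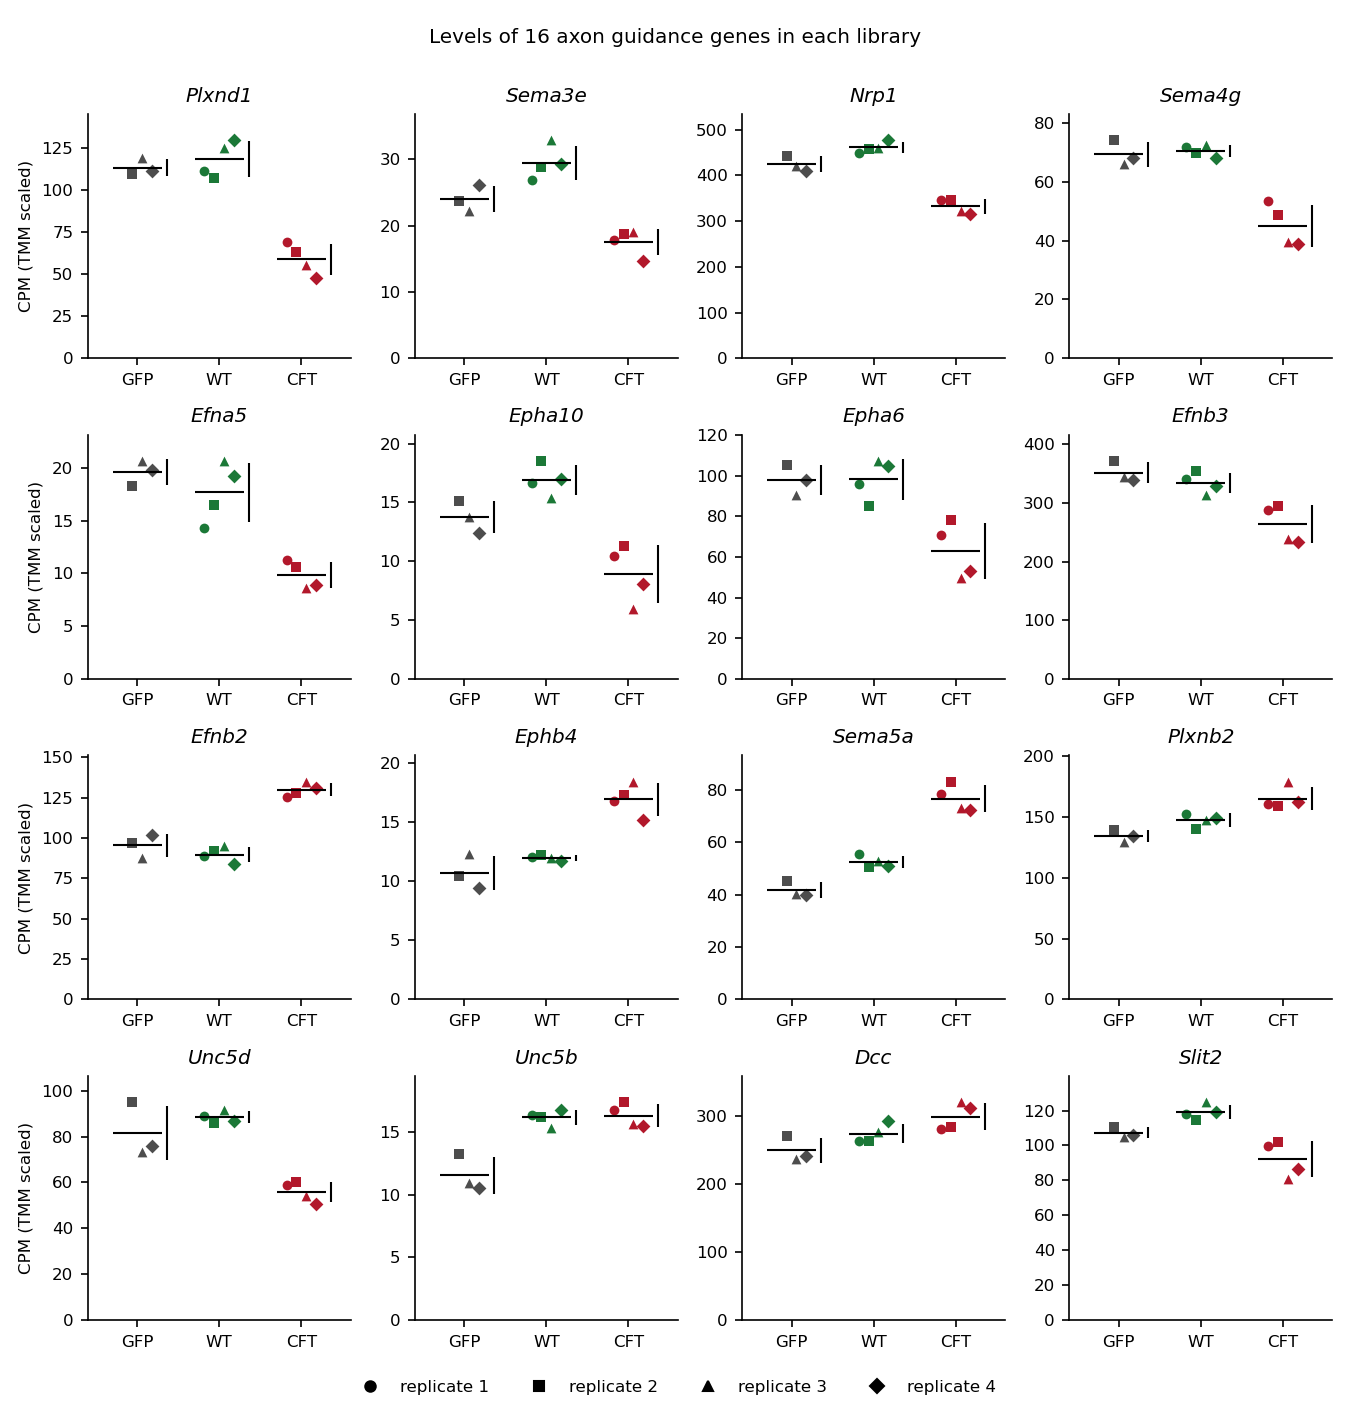
Level of 16 guidance genes in each library, in CPM with TMM scaling on linear axes from 0. Marker shapes give the replicate number, the horizontal line the group mean and the vertical bar the mean ± SD (n = 3 for GFP, n = 4 for each H1.4 group). In Plxnd1, Sema3e, Nrp1, Efna5 and Unc5d every H1.4 CFT library is below every other, and in Efnb2, Ephb4, Sema5a and Plxnb2 every one is above.

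Of the 8 ephrins 3 fell (37.5%) and 2 rose (25%) against each control group. All tested genes gave 19.2% and 16.7% against WT H1.4, and 16.2% and 13.3% against GFP. Ephrin-A proteins are tethered to the membrane by a lipid anchor and ephrin-B proteins span it. Efna5, the ligand that patterns topographic maps and repels hippocampal axons, stood at 14.3, 16.5, 20.6 and 19.2 CPM in WT 1 to 4, 11.2, 10.6, 8.63 and 8.92 CPM in CFT 1 to 4, and 18.2, 20.6 and 19.8 CPM in GFP 2 to 4. It fell 1.80-fold against WT H1.4 (log2 fold change -0.85, with SE 0.12 and adjusted p = 1.68e-05) and 1.99-fold relative to GFP (log2 fold change -0.99, with SE 0.12 and adjusted p = 9.54e-06), with no overlap. Efna3, an ephrin-A whose receptor EphA4 shapes spines at the contact with astrocytes, stood at 67.7, 69.7, 67.8 and 64.6 CPM in WT 1 to 4, 57.5, 62.0, 49.3 and 46.4 CPM in CFT 1 to 4, and 67.1, 71.2 and 65.1 CPM in GFP 2 to 4. Its decreases were 1.25-fold (log2 fold change -0.33, with SE 0.07 and adjusted p = 0.00197) and 1.26-fold (log2 fold change -0.33, with SE 0.08 and adjusted p = 0.00396). The other 3 ephrin-A genes, Efna1, Efna2 and Efna4, passed in no comparison, with log2 fold changes of 0.07, 0.05 and -0.26 against WT H1.4.

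All 3 ephrin-B genes passed, in different directions. Efnb3, a postsynaptic and midline ephrin, stood at 341, 354, 313 and 328 CPM in WT 1 to 4, 288, 296, 238 and 234 CPM in CFT 1 to 4, and 372, 344 and 339.7 CPM in GFP 2 to 4. It was 1.27-fold lower than in WT H1.4 (log2 fold change -0.34, with SE 0.07 and adjusted p = 0.00256) and 1.33-fold lower than in GFP (log2 fold change -0.42, with SE 0.08 and adjusted p = 0.00143). Efnb1 was higher, with 64.4, 69.2, 63.3 and 60.6 CPM in CFT 1 to 4, 60.3, 59.7, 51.3 and 49.9 CPM in WT 1 to 4 and 58.1, 56.3 and 55.1 CPM in GFP 2 to 4. The H1.4 CFT libraries were above all others, CFT 4 by a small margin over WT 1. Its log2 fold changes were 0.22 (adjusted p = 0.01, SE 0.06) and 0.19 (adjusted p = 0.045, SE 0.07). Together with Efnb2 this made 2 ephrin-B genes higher and 1 lower against each control group.

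Of the Eph receptor tyrosine kinases, 6 of 14 fell (42.9%) and 2 rose (14.3%) against WT H1.4, beside 19.2% and 16.7% over all tested genes. Against GFP 5 fell (35.7%) and 1 rose (7.14%), beside 16.2% and 13.3%. Epha10, a member with a kinase domain thought to be inactive, stood at 16.6, 18.5, 15.4 and 17.0 CPM in WT 1 to 4, 10.4, 11.3, 5.91 and 8.04 CPM in CFT 1 to 4, and 15.1, 13.8 and 12.4 CPM in GFP 2 to 4. It was 1.89-fold lower than in WT H1.4 (log2 fold change -0.92, with SE 0.15 and adjusted p = 0.000174) and 1.54-fold lower than in GFP (log2 fold change -0.62, with SE 0.16 and adjusted p = 0.00891). Epha6 stood at 95.8, 85.2, 107 and 105 CPM in WT 1 to 4, 70.8, 78.4, 49.7 and 53.4 CPM in CFT 1 to 4, and 105, 90.3 and 98 CPM in GFP 2 to 4. CFT 3 and CFT 4 held the lowest values, and the decrease was 1.56-fold against WT H1.4 (log2 fold change -0.64, with SE 0.15 and adjusted p = 0.00928) and 1.55-fold relative to GFP (log2 fold change -0.64, with SE 0.16 and adjusted p = 0.0169). Ephb6, another member known to lack kinase activity, stood at 62.7, 65.7, 59.4 and 69.6 CPM in WT 1 to 4, 54.1, 52.7, 41.6 and 36.8 CPM in CFT 1 to 4, and 70.5, 61.7 and 60.4 CPM in GFP 2 to 4. Every H1.4 CFT library was below every other, and it fell 1.39-fold against WT H1.4 (adjusted p = 0.00775) and 1.39-fold relative to GFP (adjusted p = 0.0149).

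Epha4, the receptor through which astrocytic ephrin-A3 acts on spines, was at 222, 223, 242 and 244 CPM in CFT 1 to 4, 258, 268, 297 and 303 CPM in WT 1 to 4 and 249, 258 and 266 CPM in GFP 2 to 4. It fell against WT H1.4 (log2 fold change -0.28, with SE 0.05 and adjusted p = 0.000391). Against GFP the H1.4 CFT libraries were also lower, but the adjusted p was 0.051, and 0.0494 with the replicate number as a block. Epha5, a receptor of ephrin-A5, stood at 118, 126, 126 and 128 CPM in WT 1 to 4, 105, 107, 109 and 117 CPM in CFT 1 to 4, and 138, 139 and 145 CPM in GFP 2 to 4. GFP was highest and H1.4 CFT lowest, and Epha5 fell against WT H1.4 (log2 fold change -0.18, with SE 0.04 and adjusted p = 0.00335) and against GFP (log2 fold change -0.36, with SE 0.05 and adjusted p = 1.92e-05). WT H1.4 against GFP, which is the difference between these values, gave log2 fold change -0.18, with SE 0.05 and adjusted p = 0.094. Epha8, a further ephrin-A receptor, gave log2 fold changes of -0.37 (adjusted p = 0.0224, SE 0.12) and -0.58 (adjusted p = 0.00224, SE 0.13). With total counts alone the adjusted p against WT H1.4 was 0.122 for Epha5 and 0.0628 for Epha8.

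Besides Ephb4, Ephb3 rose against WT H1.4, from 20.5, 16.8, 24.0 and 21.2 CPM in WT 1 to 4 to 25.7, 23.1, 26.3 and 23.7 CPM in CFT 1 to 4 (log2 fold change 0.25, with SE 0.10 and adjusted p = 0.0433), with overlapping libraries. The remaining 6 Eph receptors, Epha1, Epha2, Epha3, Epha7, Ephb1 and Ephb2, passed in no comparison. Ephb2, which clusters with NMDA receptors at synapses, was at 197 ± 8.22 CPM in H1.4 CFT (n = 4), 207 ± 5.50 CPM in WT H1.4 (n = 4) and 201 ± 4.44 CPM in GFP (n = 3). The 95% interval of its log2 fold change was -0.15 to 0.01 against WT H1.4 and -0.12 to 0.06 against GFP. Epha1 and Epha2 were read at 0.397 to 1.02 and 0.454 to 1.25 CPM in H1.4 CFT, too few for a narrow interval.

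Slits are secreted repellents and Robos their receptors. Slit2 stood at 118, 115, 125 and 119 CPM in WT 1 to 4, 99.7, 102, 80.7 and 86.3 CPM in CFT 1 to 4, and 111, 105 and 106 CPM in GFP 2 to 4. It fell 1.29-fold against WT H1.4 (log2 fold change -0.37, with SE 0.06 and adjusted p = 0.000149) and 1.16-fold relative to GFP (log2 fold change -0.22, with SE 0.07 and adjusted p = 0.0195), and CFT 3 and CFT 4 were again the lowest libraries. With total counts alone the adjusted p for Slit2 against GFP was 0.065. Slit1 and Slit3 passed in no comparison, with log2 fold changes of 0.03 and 0.06 against WT H1.4. In Slit3 the H1.4 CFT libraries spread to both sides, 119.6, 127, 98.3 and 92.9 CPM in CFT 1 to 4 beside 98.6, 100.3, 106 and 114 CPM in WT 1 to 4. Robo1 stood at 239, 232, 227 and 234 CPM in WT 1 to 4, 213, 214, 178 and 178 CPM in CFT 1 to 4, and 229, 206 and 195 CPM in GFP 2 to 4. Robo1 fell against WT H1.4 (log2 fold change -0.25, with SE 0.06 and adjusted p = 0.006) and overlapped GFP (log2 fold change -0.10, with SE 0.07 and adjusted p = 0.293). Robo2 behaved otherwise, at 39.7, 35.7, 29.3 and 30.0 CPM in WT 1 to 4, 36.3, 32.8, 32.8 and 32.0 CPM in CFT 1 to 4, and 47.2, 44.3 and 38.6 CPM in GFP 2 to 4. There H1.4 CFT was lower than GFP (log2 fold change -0.37, with SE 0.10 and adjusted p = 0.00804) and overlapped WT H1.4 (log2 fold change -0.01, with SE 0.09 and adjusted p = 0.95), and WT H1.4 against GFP gave log2 fold change -0.36, with SE 0.10 and adjusted p = 0.0987.

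Among netrins and their receptors 1 of 9 fell and 1 rose against WT H1.4 (11.1% each), beside 19.2% and 16.7% over all tested genes. Against GFP 1 fell (11.1%) and 4 rose (44.4%), beside 16.2% and 13.3%. Unc5d, a netrin receptor that also binds FLRT2 in migrating cortical neurons, stood at 89.2, 85.9, 91.7 and 86.7 CPM in WT 1 to 4, 58.7, 60.3, 53.9 and 50.6 CPM in CFT 1 to 4, and 95, 73.4 and 75.9 CPM in GFP 2 to 4. The H1.4 CFT libraries lay below all others. Unc5d was 1.58-fold lower than in WT H1.4 (log2 fold change -0.66, with SE 0.07 and adjusted p = 4.77e-06) and 1.46-fold lower than in GFP (log2 fold change -0.54, with SE 0.08 and adjusted p = 9.01e-05). Unc5b stood at 16.4, 16.2, 15.3 and 16.8 CPM in WT 1 to 4, 16.8, 17.4, 15.6 and 15.5 CPM in CFT 1 to 4, and 13.2, 10.9 and 10.5 CPM in GFP 2 to 4. GFP was lowest, and both H1.4 groups were above it, H1.4 CFT by 1.41-fold (log2 fold change 0.50, with SE 0.10 and adjusted p = 0.000871) and WT H1.4 by 1.4-fold (log2 fold change 0.49, with SE 0.10 and adjusted p = 0.0199). Between the H1.4 groups the log2 fold change of Unc5b was 0.01, with a 95% interval of -0.17 to 0.20.

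Dcc, the attractive netrin-1 receptor, stood at 263, 263, 277 and 293 CPM in WT 1 to 4, 281, 284, 320.5 and 312 CPM in CFT 1 to 4, and 270.5, 238 and 241 CPM in GFP 2 to 4. It rose against GFP (1.20-fold, log2 fold change 0.26, with SE 0.06 and adjusted p = 0.00206), and against WT H1.4 the adjusted p was 0.0695 at a log2 fold change of 0.13. Its own ligand Ntn1 passed in no comparison, at 16.4 ± 0.419 CPM in H1.4 CFT (n = 4), 18.5 ± 2.01 CPM in WT H1.4 (n = 4) and 16.6 ± 0.132 CPM in GFP (n = 3). Ntn3 rose against GFP (log2 fold change 0.44, with SE 0.15 and adjusted p = 0.0287). Ntn5, a netrin with little described function, had the largest fold of the tested guidance genes on very few reads, 0.596, 0.289, 0.386 and 0.425 CPM in WT 1 to 4, 1.48, 1.07, 1.82 and 2.07 CPM in CFT 1 to 4, and 0.509, 1.18 and 0.240 CPM in GFP 2 to 4. It was 3.69-fold higher than in WT H1.4 (log2 fold change 1.88, with SE 0.39 and adjusted p = 0.000869) and 2.64-fold higher than in GFP (log2 fold change 1.4, with SE 0.42 and adjusted p = 0.0162), where GFP 3 overlapped H1.4 CFT. Its span overlaps that of Sec1 in the gene table. Unc5a, Unc5c and Ntn4 passed in no comparison.

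**Figure D3:**
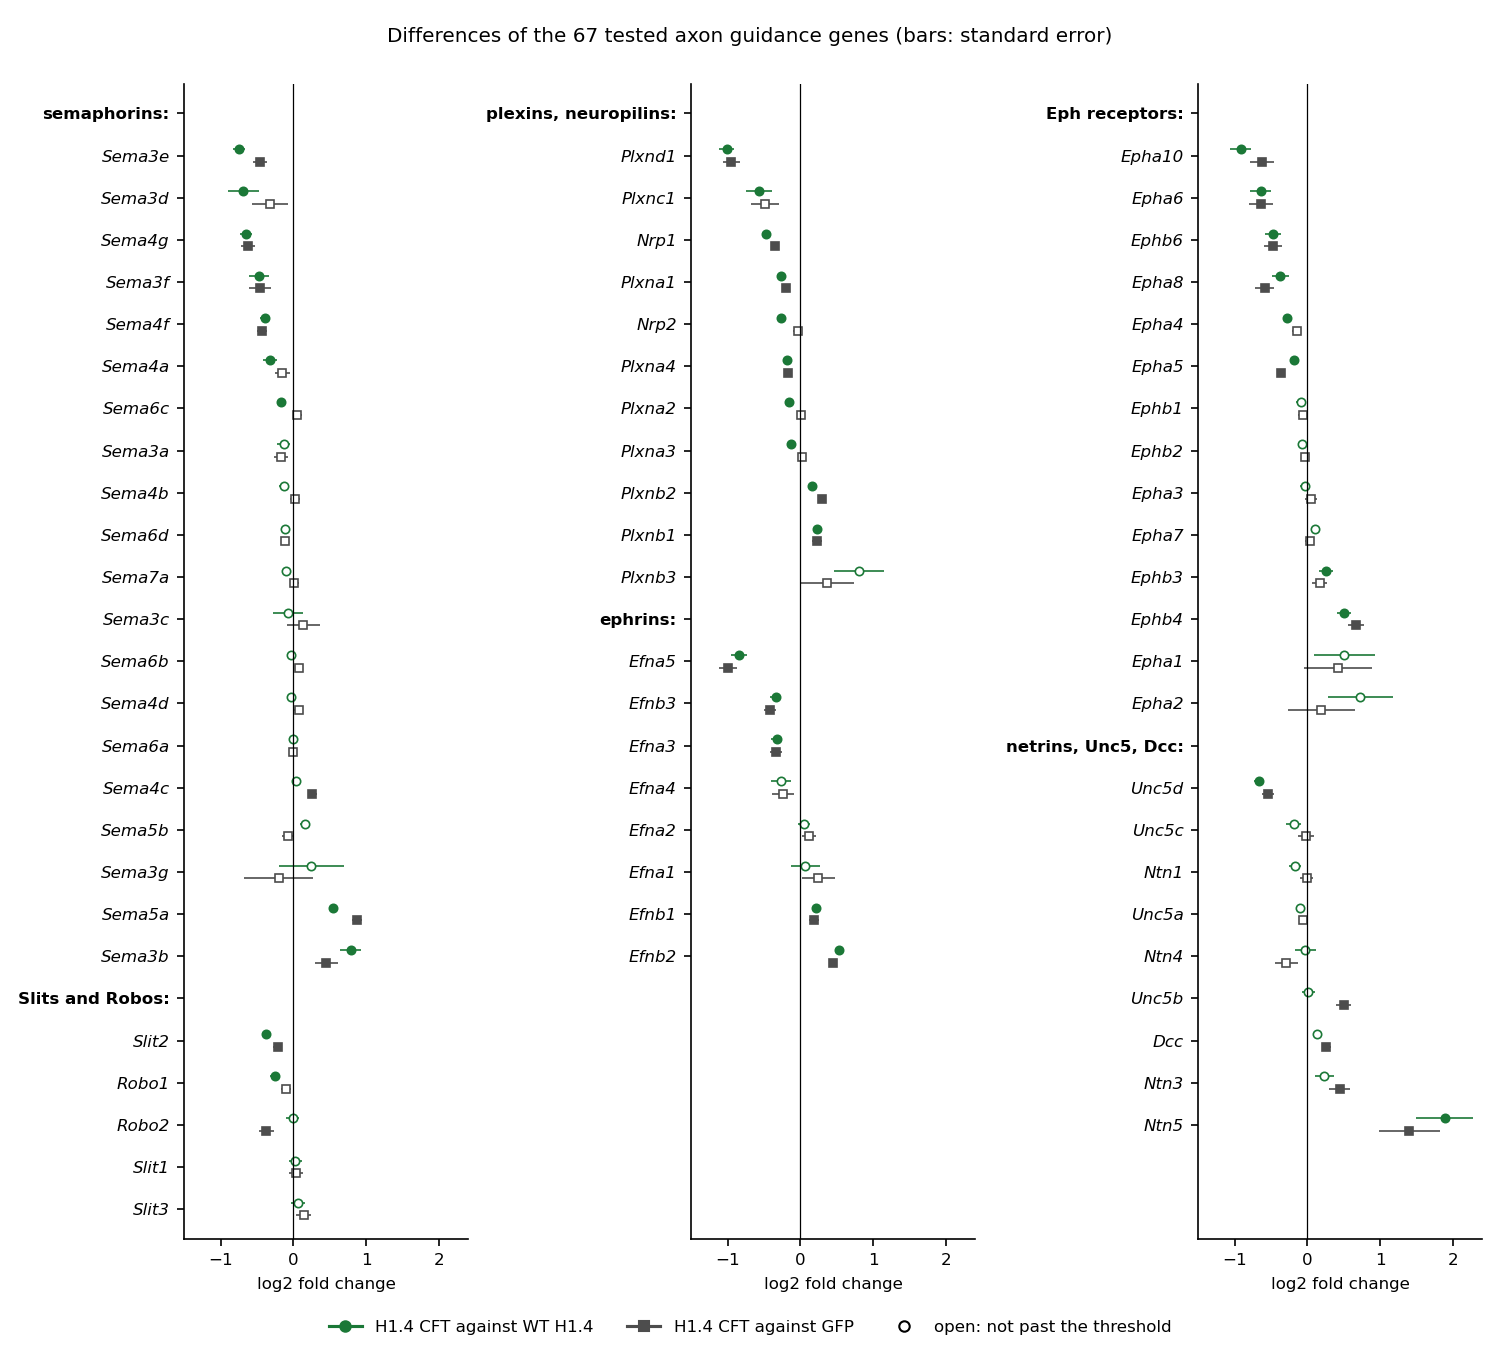
Log2 fold change with its standard error for the 67 tested guidance genes, by family. Green circles give H1.4 CFT relative to WT H1.4, grey squares H1.4 CFT relative to GFP, and filled markers are past the adjusted threshold. Plxnd1 lies at -1.01 and -0.95, Efna5 at -0.85 and -0.99, and Ntn5, with few reads, lies farthest to the right at 1.88 and 1.4.

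Sizes were moderate. Against WT H1.4, 8 guidance genes were at least 1.5-fold lower with an adjusted p under the threshold (Plxnd1, Epha10, Efna5, Sema3e, Sema3d, Unc5d, Sema4g and Epha6), beside 4.24% of all tested genes, and 2 were at least 1.5-fold higher (Ntn5 and Sema3b), beside 5.18%. Against GFP the numbers were 5 lower (Efna5, Plxnd1, Epha6, Sema4g and Epha10), beside 4.26%, and 3 higher (Ntn5, Sema5a and Ephb4), beside 4.33%. No overlap between libraries of the H1.4 groups was seen for 28 guidance genes that were lower and 8 that were higher, beside 18.5% and 16.1% of all tested genes. Of the 31 guidance genes that did not pass against WT H1.4, 23 had at least 2000 reads in total, and their 95% intervals on the log2 scale all lay within -0.55 to 0.40. Both ends belong to Sema3c.

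The decreases were larger in libraries 3 and 4 than in libraries 1 and 2. With the H1.4 groups compared within each number pair, 26 of the 27 genes that fell had the larger fall in pair 3 and 4, with Epha5 as the exception. Their median log2 fold change was -0.26 in pair 1 and 2 and -0.55 in pair 3 and 4. Over all 3311 lower genes that could be compared, 85% had the larger fall in pair 3 and 4, with medians of -0.26 and -0.45. Epha6 went from -0.28 to -1.04, Efna5 from -0.49 to -1.19, and Plxnd1 from -0.73 to -1.31. Of the 9 genes that rose, 5 had the larger rise in pair 3 and 4, beside 67.4% of all higher genes. All 36 genes had the same direction in both pairs. They were called in a fit over these same libraries, so this agreement was largely fixed in advance and is no replication. Pair 1 and 2 alone gave 22 lower and 14 higher guidance genes, and pair 3 and 4 alone gave 37 lower and 10 higher. Over all genes there were 2653 lower and 2080 higher in pair 1 and 2, and 4081 lower and 3446 higher in pair 3 and 4. Each of these fits leaves out the larger spread across pairs, so its counts are not comparable with those from all libraries.

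**Figure D4:**
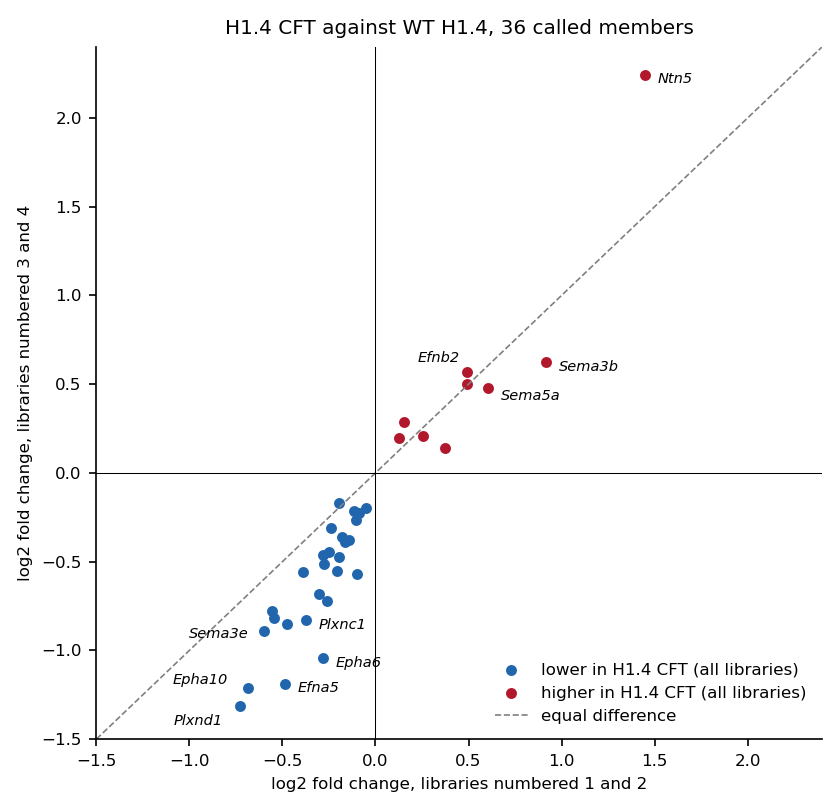
Log2 fold change of the 36 guidance genes past the threshold in H1.4 CFT relative to WT H1.4, from libraries numbered 1 and 2 (x axis) and 3 and 4 (y axis). Blue points fell and red points rose over all libraries, and the dashed line marks equal differences. Of the 27 blue points 26 lie below the line, with Plxnd1, Efna5 and Epha6 among the lowest.

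In WT H1.4 against GFP, Sema5a and Unc5b, described above, were the genes past the threshold, with 18 of 67 guidance genes at an unadjusted p under 0.05, beside 1997 of all 17294, and 0 lower by edgeR. DESeq2 gave 3 higher and 1 lower, beside 132 higher and 136 lower over all genes, where edgeR gave 75 and 88. Libraries of WT H1.4 and GFP did not overlap for 14 higher and 3 lower guidance genes, beside 6.29% and 5.94% of all genes, and 0 guidance genes passed with at least 1.5-fold higher or lower level, beside 0.0173% and 0.139%. The calls did not hold without single libraries. Without WT 1, GFP 3 or GFP 4 the adjusted p for Sema5a was 0.0646, 0.135 and 0.18. For Unc5b it was 0.0549, 0.0531, 0.0694, 0.147 and 0.205 without WT 1, WT 2, WT 4, GFP 3 or GFP 4. The number of guidance genes past the threshold was 1 without WT 1 (a lower gene, Robo2, at an adjusted p of 0.0236), beside 105 over all genes. It was 1 without WT 2 or WT 4 (91 and 84 over all genes) and 4 without GFP 2 (306 over all genes). Without GFP 3 or GFP 4 it was 0 (44 and 45 over all genes). Libraries 3 and 4 alone gave 23 higher and 2 lower guidance genes, and 949 higher and 647 lower over all genes. That fit leaves out the larger spread across number pairs, so its counts are not comparable with those from all libraries. Astrocyte markers moved in this comparison as well, with 6 of 11 lower in WT H1.4, inhibitory neuron markers with 5 of 9 lower, and mural and fibroblast markers with 4 of 10 lower, all 4 by at least 1.5-fold. Their part in these values was not tested.

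Leaving out each library in turn kept 29 of the 36 calls against WT H1.4 and 20 of the 31 against GFP. Except for GFP 2, each omission left the other library of the same number pair in place. It therefore cannot show how far a call depends on a pair, and these fits took the libraries of a group as independent. Against WT H1.4, the adjusted p of Efnb1 became 0.0502 without WT 4, and that of Sema3d 0.0504 without WT 3 and 0.0581 without CFT 3. Epha8 lost its call without WT 2, WT 4 or CFT 4 (0.0713, 0.0652 and 0.0864), Plxna3 without WT 3, WT 4, CFT 3 or CFT 4 (0.0988, 0.0606, 0.0746 and 0.0663), and Sema6c without WT 2, WT 3, CFT 3 or CFT 4 (0.0673, 0.0806, 0.0953 and 0.0638). Ephb3 and Plxnc1 each lost it in 7 of 11 omissions. For Ephb3 these were WT 1, 2 and 4, CFT 1, 3 and 4, and GFP 3, with adjusted p up to 0.162 without WT 2. For Plxnc1 they were WT 1 to 4, CFT 3 and 4, and GFP 3, with adjusted p up to 0.0914 without CFT 4. These 7 genes kept their direction throughout.

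Against GFP the calls that did not hold turned mostly on GFP libraries, of which there were 3. Without GFP 2 the adjusted p was 0.0596 for Epha6, 0.0626 for Ephb6, 0.116 for Plxna4, 0.0501 for Robo2, 0.0651 for Plxnb1, 0.0655 for Ntn5, 0.078 for Slit2, 0.139 for Sema3f, 0.0533 for Ntn3 and 0.0645 for Efnb1. Without GFP 3 it was 0.0845 for Plxnb1, 0.107 for Sema3b, 0.107 for Ntn3 and 0.114 for Efnb1. Without GFP 4 it was 0.0502 for Epha6, 0.123 for Ntn5, 0.0505 for Slit2, 0.0539 for Sema3f, 0.0959 for Sema3b, 0.0718 for Ntn3 and 0.153 for Efnb1. Among H1.4 CFT libraries, Sema3b and Ntn3 lost the call without CFT 1 (0.1 and 0.0741) or CFT 2 (0.0673 and 0.0903). Slit2 and Sema3f lost it without CFT 3 (0.0593 and 0.0746) or CFT 4 (0.0572 and 0.0756), and Efnb1 without CFT 1, CFT 2 or CFT 3 (0.0615, 0.116 and 0.061).

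Other genes of the pathway, listed apart from these families, also fell more often than they rose, beside 19.2% lower and 16.7% higher over all tested genes against WT H1.4, and 16.2% and 13.3% against GFP. The lists were chosen with earlier results of these data known, so they are no independent check on the guidance genes. Of 46 further surface and secreted guidance proteins, 25 fell and 5 rose against WT H1.4, with a median log2 fold change of -0.20, and 18 fell and 6 rose against GFP. With total counts alone, both lists together gave 37 lower and 20 higher against WT H1.4, where TMM scaling gave 57 and 9, and 34 lower and 22 higher against GFP, where it gave 41 and 14. Over all genes total counts gave 2272 lower and 4986 higher against WT H1.4, and 2027 lower and 3739 higher against GFP. Of 66 tested genes that carry the signal inside the cell, 32 fell and 4 rose against WT H1.4 (median -0.13), and 23 fell and 8 rose against GFP. Dpysl3, one of the collapsin response mediators that carry semaphorin signals to microtubules, stood at 1998, 2041, 1823 and 1795 CPM in CFT 1 to 4, 2759, 2880.2, 2851 and 2914 CPM in WT 1 to 4 and 2698, 2503 and 2540.4 CPM in GFP 2 to 4. Its level was 1.49-fold lower than in WT H1.4 (log2 fold change -0.57, with SE 0.05 and adjusted p = 6.82e-08) and 1.35-fold lower than in GFP (log2 fold change -0.43, with SE 0.05 and adjusted p = 3.41e-06). The listed relatives Crmp1, Dpysl2, Dpysl4 and Dpysl5 fell against both control groups too. Trim67, a ubiquitin ligase of the netrin response, fell 1.60-fold against WT H1.4 (log2 fold change -0.68, with SE 0.06 and adjusted p = 1.11e-06), and the kinases Pak1 and Pak3 fell 1.36-fold (adjusted p = 4.08e-06) and 1.44-fold (adjusted p = 9.52e-07). Among surface proteins Lrrc4, a synaptic netrin-G ligand, fell 1.45-fold (log2 fold change -0.54, with SE 0.07 and adjusted p = 1.42e-05).

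The FLRT proteins, ligands of Unc5 receptors and latrophilins, passed in part. Flrt2 and Flrt3 fell against WT H1.4 (-0.46 and -0.50 on the log2 scale, adjusted p = 0.000324 and 5.42e-05) and against GFP (-0.51 and -0.48, adjusted p = 0.000313 and 0.000224). Flrt1 differed little between the H1.4 groups (-0.01, adjusted p = 0.866) and was above GFP in both, by 0.24 in H1.4 CFT (adjusted p = 0.00421) and 0.25 in WT H1.4 (adjusted p = 0.0421). The immunoglobulin receptors Dscam, which binds netrin-1, and Ncam1 fell against WT H1.4 by 1.42-fold and 1.33-fold (adjusted p = 2.35e-05 and 3.11e-05). Sdc3, a heparan sulphate proteoglycan, fell 1.29-fold (adjusted p = 1.18e-05), and Mical2, an actin-oxidizing enzyme of plexin signalling, fell 1.26-fold (adjusted p = 0.00255). Of these 112 genes 3 passed in WT H1.4 against GFP, all higher, beside 0.434% higher and 0.509% lower over all tested genes. They were Draxin, a netrin antagonist (0.29, adjusted p = 0.0101), Islr2 (0.29, adjusted p = 0.00565) and Flrt1. Without GFP 3 or without GFP 4, 0 of the 112 passed. In H1.4 CFT relative to WT H1.4 the log2 fold change was -0.14 for Draxin (adjusted p = 0.0364) and -0.27 for Islr2 (adjusted p = 0.000176).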

How the data were processed

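Total RNA was column-purified with DNase treatment, and polyadenylated RNA was sequenced on an Illumina instrument by a service provider, per the labels' protocols. Reads were processed with STAR 2.7.2b and HTSeq 0.10.0 on mRatBN7.2, per the submitters' processing notes; the annotation release and the strand setting are not given in the sources used here. The authors deposited raw read counts per gene, one table per library. The 5 rows that name no gene (53.1% to 54.1% of each table) were left out.

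Genes were filtered with edgeR's filterByExpr (minimum count 10, minimum total 15), scaled by TMM (factors 0.970 to 1.06) and fitted by the quasi-likelihood test, robust, with all 11 libraries in one fit (edgeR 4.0.16, R 4.3.3, 8 residual degrees of freedom). Adjusted p-values are Benjamini-Hochberg over 17294 genes. DESeq2 1.42.0 served as an alternative, and edgeR ran on limma 3.58.1. On counts simulated for the comparison of H1.4 CFT with WT H1.4, over 17294 genes, 62% of genes changed 1.25-fold and 90% of those changed 1.5-fold were recovered, with 14 false among 186 calls. The simulation changed 50 genes at each fold, none with low counts, and drew libraries without number pairs. Its rates may therefore not hold for these data.

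The guidance genes, the pathway lists and the markers (neurons, inhibitory neurons, astrocytes, oligodendrocytes, microglia, endothelial cells, mural cells and fibroblasts) were chosen with earlier results of these data known. Per family and comparison, up to 4 genes past the threshold with the smallest p were described, with the gene of most reads; others are named with their values. Genes outside the families were up to 4 per list and comparison by the same order, besides the Crmp1 and Dpysl genes and Flrt1, named for their relation to these. In the RefSeq gene table (GRCr8), 38 of 68 guidance genes overlap another gene, so part of their reads may belong to that gene. For 7 of them a protein-coding gene is overlapped (Epha1, Ephb4, Ntn5, Robo3, Sema5a, Sema6a and Unc5a). Outside the families, Dpysl3, Lrrc4, Flrt1 and Flrt3 overlap a protein-coding gene too. Same-numbered libraries deviated together (correlations of 0.142 to 0.192 for H1.4 CFT with WT H1.4 and 0.124 to 0.255 for H1.4 CFT with GFP). The same number was not always the best partner, but every best partner lay in the same number pair. CFT 1 correlated more with WT 2 (0.189) than with WT 1 (0.149), and CFT 4 more with WT 3 (0.168) than with WT 4 (0.142). CFT 3 correlated more with GFP 4 (0.181) than with GFP 3 (0.124). The fit with the replicate number as a block is given where it changes a guidance gene's call. This pairing comes from the data and not from the labels.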

Additional observations from a re-analysis of the deposited data

Results flagged for a closer look

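In Plxnb2, the plexin-B2 gene, one H1.4 CFT library stood apart from its group. CFT 3 was at 179 CPM, while the other 3 lay between 159 and 162 CPM. The gap to the nearest library was 0.855 of the range of the group, above Dixon's 95% critical value for 4 libraries. Of 82 groups of 4 libraries examined this was 1 case, and chance gives about 1 in 20. Plxnb2 stayed past the threshold against WT H1.4 and GFP without CFT 3.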

How the results depend on the processing

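The counts of guidance genes in H1.4 CFT stayed within 1.5 times of the reported ones (36 against WT H1.4, 31 against GFP) under every alternative run but one, and those of the other pathway genes (66 and 55) likewise. The exception was the test against a log2 fold change of 0.25 (glmTreat). It left 13 and 10 guidance genes and 17 and 9 other pathway genes, beside 1835 and 1502 of all tested genes. The main fit called 6217 and 5098 of all tested genes. Leaving out one library gave 32 to 39 guidance genes against WT H1.4 and 21 to 32 against GFP. Other pathway genes numbered 49 to 68 and 44 to 60, and all genes called 5030 to 6444 and 3966 to 5132. WT H1.4 against GFP was not stable, shown here with the calls over all genes in brackets. Beside 2 guidance genes and 3 other pathway genes (163), glmTreat gave 0 and 0 (5), and DESeq2 4 and 6 (268). No low-count filter gave 7 and 10 (462), libraries 3 and 4 alone 25 and 40 (1596), and a term for the number pair 10 and 8 (404). The fit of the groups compared alone gave 9 other pathway genes (348), and leaving out one library gave 0 to 4 and 0 to 5 (44 to 306). With the replicate number as a block the guidance genes numbered 38 against WT H1.4, 32 against GFP and 5 in WT H1.4 against GFP. The other pathway genes numbered 71, 64 and 5, and all genes called 6809, 5597 and 248. Apart from Sema3b against GFP the block ended no guidance gene's call. It added Sema4b and Sema6d against WT H1.4, Epha4 and Plxnc1 against GFP, and Nrp2, Robo2 (lower) and Sema4c in WT H1.4 against GFP (adjusted p = 0.0286, 0.00257 and 0.0499), where same-numbered libraries correlated at 0.0927 to 0.206. Total counts without TMM factors and the number pair term were chosen after seeing the data. GFP has no library 1, so pair 1 and 2 gave no value for comparisons with it. The cause of these changes was not tested. No named gene past the threshold changed direction under these alternatives. Low counts limit Robo3, Ntn5, Sema3d, Sema3g, Plxnb3, Epha1 and Epha2.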
